A study of Homo sapiens with 21 samples.

Results

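The aminoacyl-tRNA synthetases were followed as a family of 36 human genes, taken by symbol from the 34021 genes of an RNA-seq matrix of H1975 cells. Each symbol occurred once. Of the 36, 18 encode cytosolic enzymes, 16 encode mitochondrial enzymes, and GARS1 and KARS1 serve both compartments. H1975 is an established line from a human lung adenocarcinoma in which the EGFR gene, for the epidermal growth factor receptor, is mutated. The series as a whole deals with circular RNAs after inhibition of EGFR. Of its 21 samples, the 9 RNA-seq libraries were used, and 12 circular RNA libraries were not analysed here. All 9 libraries came from H1975 cells kept for 8 days, with 3 libraries in each of 3 groups, and the genotype is labelled WT in DMSO+EV and OL+EV. DMSO+EV received the vehicle and EV, a label the submitters do not spell out. OL+EV received 500 nM osimertinib, which inhibits mutant EGFR covalently, 500 nM linsitinib, which inhibits the kinases of IGF1R and of the insulin receptor, and EV, which only the sample titles name. OC received 500 nM osimertinib and overexpression of cIGF1R, a circular RNA of the IGF1R gene, and its label names no EV. OC and OL+EV therefore differ in both linsitinib and cIGF1R, and the matrix has no group with osimertinib alone.

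Each aminoacyl-tRNA synthetase joins 1 amino acid to its tRNAs, which the ribosome then reads. Human cells use separate genes for most cytosolic and mitochondrial enzymes, both encoded in the nucleus, and hold part of the cytosolic set in a multisynthetase complex with the scaffolds AIMP1, AIMP2 and EEF1E1. Many cytosolic members are known targets of ATF4, the transcription factor of the amino-acid response, which binds C/EBP-ATF response elements. WARS1, the cytosolic tryptophan enzyme, is known as an interferon-induced gene.

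Promoter sequence was taken from RefSeq (GRCh38.p14), in windows of 300 bases. Each ran from 250 before to 50 after a start set for the gene, and 30 of the 36 members had a window. For CARS2, EARS2, FARS2 and TARS1 that start lay inside the listed span of the gene, not at its edge. The 250 bases before it were chr13:110706516-110706765 for CARS2, in a gene at chr13:110641410-110713522. For TARS1 they were chr5:33440715-33440964, in a gene at chr5:33440696-33468091. The C/EBP-ATF response element was searched as TGATGNAA on both strands. It occurred in 7 of the 30 member windows (23.3%) and in 3.67% of all 27305 windows. These 7 sites are shown because they lie in the windows of enzymes whose mRNA levels are given below. Each is printed 5′ to 3′ on the strand that reads TGATG, with the matched letters in capitals.
AARS1: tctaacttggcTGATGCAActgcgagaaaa
CARS1: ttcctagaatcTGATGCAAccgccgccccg
IARS1: gcgcacggaggTGATGCAAcgcgctgaaaa
MARS1: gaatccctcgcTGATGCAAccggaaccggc
NARS1: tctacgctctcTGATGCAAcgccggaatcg
TARS1: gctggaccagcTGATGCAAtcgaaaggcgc
YARS2: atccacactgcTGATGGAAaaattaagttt
The sites of AARS1 (chr16:70289675-70289704, plus strand), CARS1 (chr11:3057407-3057436, plus strand), IARS1 (chr9:92293692-92293721, plus strand), MARS1 (chr12:57488053-57488082, minus strand) and TARS1 (chr5:33440956-33440985, minus strand) lay on the strand opposite to the gene. Those of NARS1 (chr18:57621804-57621833, minus strand) and YARS2 (chr12:32756076-32756105, minus strand) lay on the gene's own strand. In 6 of the 7 the open position of the motif was the same base, and the mitochondrial YARS2 carried another.

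WARS1 lies on chromosome 14 (chr14:100333790-100376327, minus strand). The 250 bases before its start (chr14:100376328-100376577, printed on the minus strand) are shown because its mRNA differed most of all members between groups.
WARS1 upstream: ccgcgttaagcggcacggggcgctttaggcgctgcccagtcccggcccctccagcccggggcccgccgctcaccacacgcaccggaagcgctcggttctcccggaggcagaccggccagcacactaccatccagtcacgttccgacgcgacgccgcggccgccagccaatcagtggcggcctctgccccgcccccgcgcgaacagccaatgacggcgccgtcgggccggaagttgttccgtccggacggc
Neither this stretch nor the next 50 bases held any of the 4 motifs searched, so nothing is in capitals. Besides the ATF4 element these were the interferon-linked GAS motif TTCNNNGAA, the core of the interferon-stimulated response element, a pair of GAAA blocks with any 2 bases between them, and the E-box CACGTG bound by MYC, all on both strands. The GAS motif occurred in CARS1, PARS2, TARS1 and WARS2 (13.3% of member windows, 7.88% of all). The interferon-stimulated core occurred in EARS2 (3.33% and 3.65%), and CACGTG in CARS2, EARS2, IARS1 and MARS2 (13.3% and 7.43%). In CARS1 and TARS1 the GAS and ATF4 matches did not overlap each other. A match is a description of letters, not a bound site, and a missing match says only that these letters are not in this window.

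Values are FPKM, fragments counted per length of transcript and per depth of library, a scale on which levels can be compared between genes. Library totals ranged from 429553 to 474156 FPKM in DMSO+EV, from 423319 to 432563 in OL+EV and from 338034 to 381311 in OC, and read depth is unknown. Transcripts of mitochondrial DNA took 23.8%, 22.3% and 6.70% of the total on average, and the share in DMSO+EV replicate 1 was 30.4%. The IGF1R gene read 3.76, 4.41 and 4.23 FPKM in DMSO+EV, 4.41, 3.56 and 3.73 in OL+EV, and 81.4, 82.3 and 101 in OC; a gene-level value does not separate circular from linear RNA. All 6 epithelial markers were above 1 FPKM in each group, whereas at most 1 of 4 lung adenocarcinoma markers was, and NKX2-1 stayed near 0. In every sentence below, a log2 value is a difference of means of log2(FPKM + 1), which understates the change of low genes, and called means a limma adjusted p (Benjamini-Hochberg over 13775 tested genes) under 0.05. Levels are means ± SD over 3 libraries. Separate cultures are not stated in the labels, so the p-values rest on library-to-library spread that may be purely technical.

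Across the family, most enzymes fell in both treated groups, and WARS1 in OC was the large exception. In OL+EV against DMSO+EV, 2 of 35 tested members rose and 20 fell, beside 29.0% of all genes higher and 23.5% lower (52.6% in either direction). In OC against DMSO+EV, 2 rose and 25 fell, beside 33.1% higher and 35.8% lower (69.0% in either direction). The median member differed by -0.32 and -0.56 in these comparisons, and the median of all tested genes by 0.05 and -0.03. In OC against OL+EV, 3 members rose and 15 fell, beside 25.9% higher and 34.8% lower (60.7% in either direction), with a median of -0.24 among members and -0.09 among all genes. The first 2 comparisons share their DMSO+EV libraries. Counts of groups without overlap were close to the called counts, except for members above in OC against OL+EV. In OL+EV against DMSO+EV, 2 members lay above and 20 below in every library, beside 34.3% and 27.6% of all genes. In OC against DMSO+EV these were 3 and 24, beside 33.3% and 36.5%, and in OC against OL+EV 6 and 17, beside 29.6% and 38.4%. Most falls were under 1 on the log2 scale. Called with a difference of at least 1 in either direction were 3 members in OL+EV against DMSO+EV (9.19% of all genes). There were 8 in OC against DMSO+EV (21.8%) and 2 in OC against OL+EV (11.0%). The 8 and the 2 each include the rise of WARS1. The endothelial marker sum, over the 5 of 6 markers with a row, was also lower in the treated groups, at 5.73 to 5.97 FPKM in DMSO+EV, 1.44 to 2.03 in OL+EV and 1.85 to 2.48 in OC. Of its 2 tested markers, CDH5 (3.37 ± 0.269, 0.114 ± 0.071 and 0.482 ± 0.0503 FPKM) was called lower in both and ESAM (2.07 ± 0.355, 1.62 ± 0.280 and 1.25 ± 0.314) in OC. CDH5 reached 1 FPKM only in DMSO+EV and entered the test through that group. The part of this sum in the members' values was not tested. In bulk RNA, fewer cells of a type and less RNA per cell cannot be told apart.

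Summed over all members but WARS1, the family made up 812 ± 57.2 FPKM in DMSO+EV, 601 ± 29.4 in OL+EV and 530.2 ± 24.3 in OC. WARS1 alone was 1.28 ± 0.176% of the family's summed FPKM in DMSO+EV, 1.54 ± 0.105% in OL+EV and 27.7 ± 1.53% in OC. The most abundant member was KARS1 in DMSO+EV, QARS1 in OL+EV and WARS1 in OC. TARS3, a threonine enzyme closely related to TARS1, was the 1 member too low for the test. It read 0.629, 0.260 and 0.471 FPKM in DMSO+EV, 0.558, 0.354 and 0.740 in OL+EV, and 0.413, 0.487 and 0.526 in OC, and the groups overlapped.

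**Figure D1:**
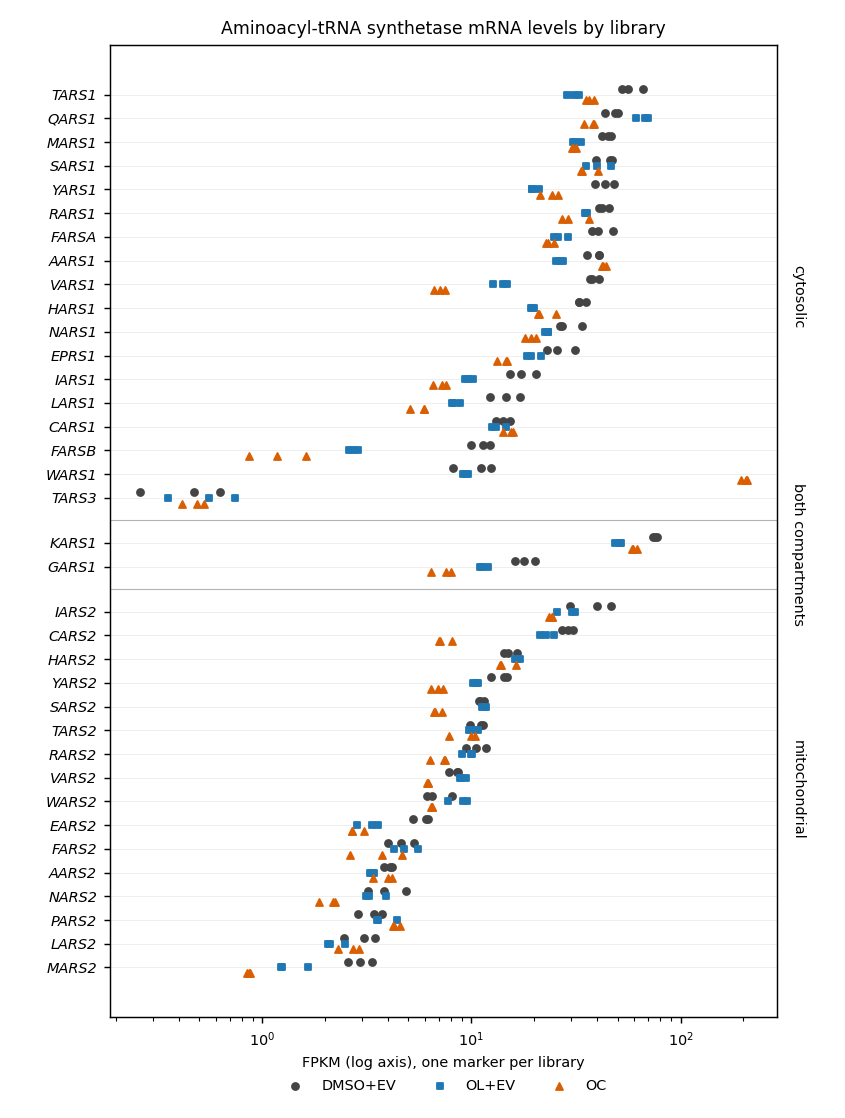
FPKM (log axis) of the 36 members in each of the 9 libraries, 1 marker per library, with colours for DMSO+EV, OL+EV and OC. The OC markers of WARS1 stand near 203 FPKM, above every other member, and those of FARSB and VARS1 lie farthest below their DMSO+EV markers.

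WARS1 mRNA was much higher in OC than in both other groups. It measured 8.17, 11.1 and 12.4 FPKM in DMSO+EV, 9.09, 9.63 and 9.40 in OL+EV, and 205, 208 and 195 in OC. The OC libraries stood apart from all 6 others, and the DMSO+EV and OL+EV libraries overlapped. Mean levels were 10.6 ± 2.17, 9.37 ± 0.273 and 203 ± 6.73 FPKM, so that OC was 19.2-fold above DMSO+EV and 21.7-fold above OL+EV. On the log2 scale WARS1 rose by 4.16 (SE 0.12, limma adjusted p = 4.15e-12) against DMSO+EV and by 4.30 (SE 0.12, limma adjusted p = 4.04e-12) against OL+EV. Its percentile among the fold changes of all tested genes in OC against DMSO+EV was 99.5, and its rank by level in the matrix was 4686 in DMSO+EV, 5105 in OL+EV and 240 in OC. OL+EV differed from DMSO+EV by -0.14 (limma adjusted p = 0.348). That comparison rests on DMSO+EV replicate 1, without which it was -0.30 with a limma adjusted p of 0.0140, and the adjusted p ranged from 0.0140 to 0.870 over the alternatives.

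The mitochondrial tryptophan enzyme WARS2 did not share this pattern. Its levels were 6.16, 8.06 and 6.51 FPKM in DMSO+EV, 9.54, 9.09 and 7.75 in OL+EV, and 6.41, 6.47 and 6.47 in OC. OL+EV was the higher group, although its lowest library lay below the highest of DMSO+EV. The rise in OL+EV was 0.31 on the log2 scale (limma adjusted p = 0.0272). That call was lost in 6 of 19 alternatives, among them those without DMSO+EV replicate 1 or 3 or OL+EV replicate 1 or 2, with an adjusted p up to 0.110. From OL+EV to OC, WARS2 fell by 0.39 (limma adjusted p = 0.00709), and OC differed from DMSO+EV by -0.08 (limma adjusted p = 0.531). The log2 ratio of WARS1 to WARS2 within a library was 0.54 ± 0.26 in DMSO+EV, 0.09 ± 0.16 in OL+EV and 4.77 ± 0.05 in OC.

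The interferon reference genes that accompany WARS1 were all called higher in OC. Of 12 tested, 12 rose in OC against DMSO+EV and 12 against OL+EV, with medians of 4.74 and 4.31, and 10 rose in OL+EV against DMSO+EV, with a median of 0.64. In the same order, 33.1%, 25.9% and 29.0% of all tested genes were higher. IDO1 and IFIT1 entered the test only through OC, so the filter itself favoured their rise there. Both are counted among the 12, and the p of IFIT1 below is no independent support. IFIT1 was 0.421 ± 0.127 FPKM in DMSO+EV and 0.838 ± 0.278 in OL+EV. WARS1 was not called in OL+EV against DMSO+EV. IRF1, a transcription factor of interferon signalling, rose already in OL+EV, from 4.44 ± 0.492 to 9.38 ± 0.855 FPKM (0.93, limma adjusted p = 3.19e-06), and was 55.3 ± 1.19 in OC. IFIT1 and IFIT3, antiviral effectors, had the largest differences of the list in OC against DMSO+EV, 7.91 (limma adjusted p = 7.42e-15) and 7.90 (limma adjusted p = 3.22e-15).

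IDO1, an interferon-induced enzyme that breaks tryptophan down, was listed at 0 in all 6 DMSO+EV and OL+EV libraries and at 13.6, 13.3 and 16.8 FPKM in OC. Of the 6 leukocyte markers, 2 were above 1 FPKM in each group, and their summed level was 22.7 to 29.1 FPKM in DMSO+EV, 23.8 to 28.5 in OL+EV and 422 to 450 in OC. That sum was nearly all CD68, at 25.1 ± 3.51 FPKM in DMSO+EV and 428 ± 15.2 in OC. CD14, the other marker above 1 FPKM, was 1.60 ± 0.345 in DMSO+EV, 1.42 ± 0.635 in OL+EV and 3.07 ± 0.937 in OC (SD, n = 3). Both were called higher in OC than in each other group, CD14 by 0.63 (limma adjusted p = 0.0153) and 0.75 (limma adjusted p = 0.0069). Of the 4 others, PTPRC, the pan-leukocyte marker, had a mean of 0.0117 there and CD3E was at 0. The fibroblast marker sum was 3.35 to 3.74, 3.21 to 3.55 and 5.53 to 6.05 FPKM, mostly COL1A1, and COL1A2 and COL3A1 were at 0 in OC. The part of other cells in the WARS1 level was not tested.

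**Figure D2:**
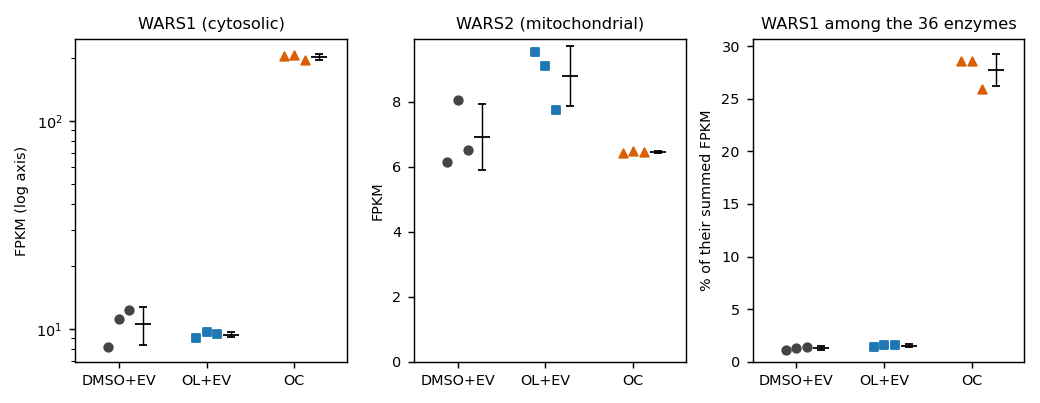
FPKM of WARS1 (log axis), FPKM of WARS2, and WARS1 as a percent of the summed FPKM of the 36 enzymes, by group, with 1 marker per library and the mean ± SD of 3 libraries beside it. The OC markers of WARS1 lie between 195 and 208 FPKM, and those of WARS2 at 6.41 to 6.47.

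Among the cytosolic enzymes, falls predominated in both treated groups. Of 17 tested, 12 fell and 1 rose in OL+EV against DMSO+EV (median -0.55), and 14 fell and 1, WARS1, rose in OC against DMSO+EV (median -0.57). In OC against OL+EV, 6 fell and 2, WARS1 and AARS1, rose (median -0.17). In the same order, 23.5%, 35.8% and 34.8% of all tested genes were lower, and 29.0%, 33.1% and 25.9% higher. The 6 of 17 lower in OC against OL+EV was thus near the share of all genes. FARSB, the beta subunit of cytosolic phenylalanine enzyme, fell most. It read 9.91, 12.2 and 11.3 FPKM in DMSO+EV, 2.70, 2.86 and 2.59 in OL+EV, and 0.860, 1.18 and 1.62 in OC. The 3 groups did not overlap and stepped down in that order. FARSB fell by 1.71 in OL+EV (SE 0.13, limma adjusted p = 1.29e-07) and by 2.46 in OC (SE 0.13, limma adjusted p = 1.17e-09), and OC was below OL+EV by a further step of -0.76 (limma adjusted p = 0.000178).

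FARSA, the alpha subunit of the same enzyme, fell less. Its level was 41.7 ± 4.99 FPKM in DMSO+EV, 26.5 ± 2.09 in OL+EV and 23.6 ± 1.21 in OC, differences of -0.63 (limma adjusted p = 0.000177) and -0.79 (limma adjusted p = 1.23e-05). The enzyme is built from equal numbers of both subunits. Their mRNA ratio, FARSA over FARSB, was 3.80, 3.86 and 3.56 in DMSO+EV, 10.7, 9.05 and 9.58 in OL+EV, and 26.3, 19.6 and 15.4 in OC. The ratio thus differed between all 3 groups without overlap, with the widest spread in OC, where FARSB was lowest. This ratio was computed after the values had been seen and was not tested.

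VARS1, the cytosolic valine enzyme, was the member next to FARSB in size of fall. It stood at 37.0, 40.8 and 37.7 FPKM in DMSO+EV, 14.8, 14.2 and 12.7 in OL+EV, and 7.43, 6.61 and 7.09 in OC. All OC libraries lay below all OL+EV libraries, and these below all DMSO+EV libraries. VARS1 fell by 1.41 in OL+EV (SE 0.09, limma adjusted p = 3.46e-08) and by 2.30 in OC (SE 0.09, limma adjusted p = 8.18e-11). OC against OL+EV gave -0.89 (SE 0.09, limma adjusted p = 2.68e-06).

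YARS1, the cytosolic tyrosine enzyme, fell to a similar level in both treated groups. Values were 38.9, 43.3 and 48.1 FPKM in DMSO+EV, 21.1, 19.4 and 19.5 in OL+EV, and 21.3, 24.3 and 26.0 in OC. Both treated groups were below DMSO+EV in every library, and OC lay just above OL+EV. The falls were 1.08 (SE 0.10, limma adjusted p = 1.67e-06) and 0.84 (SE 0.10, limma adjusted p = 8.16e-06) on the log2 scale, and OC minus OL+EV was 0.24 (limma adjusted p = 0.0572), which passed the threshold in 6 of 19 alternatives, among them those without DMSO+EV replicate 1 or 3 or OC replicate 1.

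AARS1, the cytosolic alanine enzyme, was the only cytosolic member besides WARS1 called higher in OC than in OL+EV. It measured 35.9, 40.7 and 40.9 FPKM in DMSO+EV, 27.4, 26.4 and 25.3 in OL+EV, and 42.8, 41.9 and 44.2 in OC. OL+EV was the low group, and OC was above both. AARS1 fell by 0.55 in OL+EV (limma adjusted p = 0.000150) and was higher by 0.68 in OC than in OL+EV (SE 0.09, limma adjusted p = 2.02e-05). Its OC level differed from DMSO+EV by 0.13 (limma adjusted p = 0.188). The threonine enzyme TARS1 was also lowest in OL+EV, 58.1 ± 7.10, 30.8 ± 2.02 and 36.7 ± 1.61 FPKM, and its OC minus OL+EV difference of 0.25 (limma adjusted p = 0.0511) was called in 7 of 19 alternatives, among them those without DMSO+EV replicate 1 or 3. When libraries were rescaled by the median of ratios, the number of cytosolic members higher in OC than in OL+EV was 6 in place of 2, and with equal totals outside mitochondrial genes it was 5.

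CARS1, the cysteine enzyme, and SARS1, the serine enzyme, had the smallest falls or none among cytosolic members other than AARS1 and WARS1 in OC. CARS1 was 14.2 ± 1.10, 13.4 ± 1.12 and 15.1 ± 0.843 FPKM and was not called, except as higher in OC than in OL+EV after median-of-ratios rescaling (0.23, limma adjusted p = 0.0360). SARS1 was 44.1 ± 4.08, 40.6 ± 5.58 and 35.8 ± 3.77 FPKM, and its fall of 0.30 in OC (limma adjusted p = 0.0386) was lost in 7 of 19 alternatives, among them those without DMSO+EV replicate 2 or 3, OL+EV replicate 2, or OC replicate 1 or 2, with an adjusted p up to 0.122. HARS1, the histidine enzyme, went from 33.5 ± 1.60 to 19.6 ± 0.411 in OL+EV and 22.4 ± 2.59 in OC, falls of 0.75 (limma adjusted p = 2.15e-05) and 0.57 (limma adjusted p = 0.000124). NARS1, the asparagine enzyme, was 29.0 ± 3.98, 22.9 ± 0.385 and 19.2 ± 1.18 FPKM, and its fall of 0.32 in OL+EV (limma adjusted p = 0.0167) was lost without DMSO+EV replicate 3 (-0.21, adjusted p = 0.0599) and without OL+EV replicate 2 (-0.31, adjusted p = 0.0579).

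**Figure D3:**
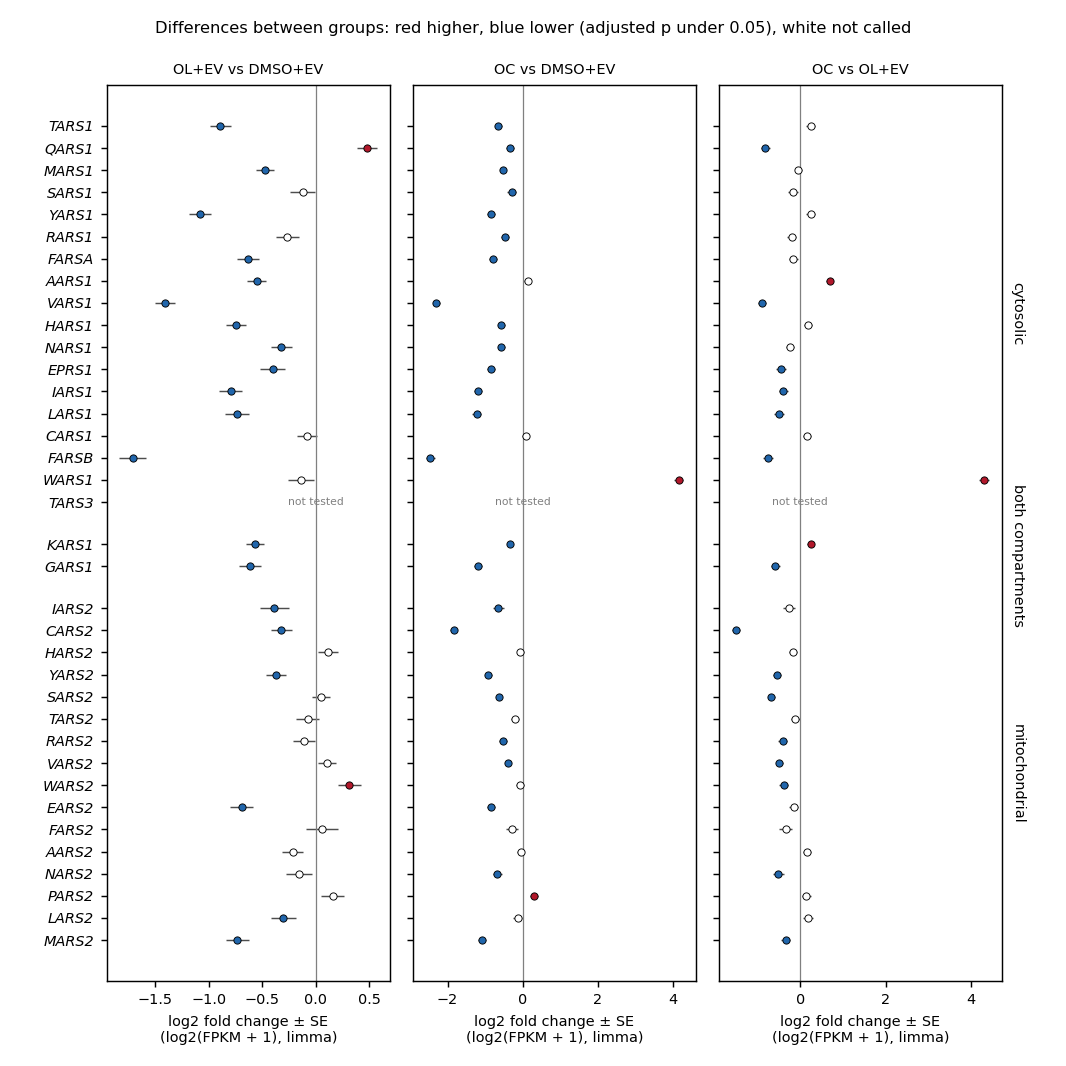
Log2 fold changes ± SE from limma for the 35 tested members in the 3 comparisons, red for called higher, blue for called lower and white for not called. FARSB and VARS1 lie farthest to the left against DMSO+EV, and WARS1 stands at 4.16 and 4.30 in the OC panels.

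The 7 members of the multisynthetase complex, EPRS1, IARS1, LARS1, MARS1, QARS1, RARS1 and KARS1, all fell in OC against DMSO+EV, from -0.33 for KARS1 to -1.22 for LARS1. Of all tested genes, 35.8% were lower in that comparison. In OL+EV against DMSO+EV 5 of the 7 fell and QARS1 rose, beside 23.5% of all genes lower and 29.0% higher. QARS1, the glutamine enzyme, was the only cytosolic member higher in OL+EV than in DMSO+EV. Its values were 43.5, 48.4 and 50.01 FPKM in DMSO+EV, 70.0, 67.7 and 60.9 in OL+EV, and 38.3, 34.6 and 38.7 in OC. OL+EV was the high group and OC the low one, with no overlap. QARS1 rose by 0.48 in OL+EV (SE 0.10, limma adjusted p = 0.000952), fell by 0.34 in OC against DMSO+EV (limma adjusted p = 0.00649) and was lower in OC than in OL+EV by -0.81 (SE 0.10, limma adjusted p = 9.82e-06).

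LARS1 and IARS1, the leucine and isoleucine enzymes, stepped down over both treated groups. LARS1 was 14.6 ± 2.39, 8.33 ± 0.393 and 5.65 ± 0.487 FPKM, and IARS1 was 17.6 ± 2.49, 9.69 ± 0.424 and 7.12 ± 0.530. All 3 comparisons were called lower for each, OC against OL+EV by -0.49 (limma adjusted p = 0.00222) for LARS1 and by -0.40 (limma adjusted p = 0.00536) for IARS1. EPRS1, the joined glutamate and proline enzyme, followed the same order at 26.6 ± 4.34, 19.7 ± 1.60 and 14.2 ± 0.861 FPKM. MARS1, the methionine enzyme, fell to 31.8 ± 1.55 in OL+EV and 30.8 ± 0.681 in OC, from 44.5 ± 2.03 FPKM. RARS1, the arginine enzyme, was 42.8 ± 2.58, 35.3 ± 0.406 and 30.8 ± 4.94 FPKM. Its OL+EV difference of -0.27 (limma adjusted p = 0.0523) was called in 8 of 19 alternatives, among them those without OC replicate 1 or 3.

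Scaffold mRNAs of the complex also fell. AIMP2 read 14.8, 21.9 and 21.0 FPKM in DMSO+EV, 10.8, 9.69 and 9.04 in OL+EV, and 3.91, 4.61 and 5.22 in OC. Its falls of 0.88 in OL+EV (limma adjusted p = 0.000148) and 1.84 in OC (limma adjusted p = 6.71e-08) were larger in size than those of any enzyme in the complex. EEF1E1 went from 18.2 ± 1.18 to 9.71 ± 1.90 and 6.60 ± 0.984 FPKM, and both falls were called, 0.85 (limma adjusted p = 0.000134) and 1.34 (limma adjusted p = 1.04e-06). AIMP1 was 8.72 ± 0.869, 7.64 ± 0.623 and 5.99 ± 0.346 FPKM, called lower in OC (-0.47, limma adjusted p = 0.000769) but not in OL+EV (-0.17, limma adjusted p = 0.168). Whether scaffolds and enzymes differed in size of fall was not tested.

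Both dual-compartment enzymes fell in each treated group, but they parted between OL+EV and OC. GARS1, the glycine enzyme, read 16.2, 17.7 and 20.1 FPKM in DMSO+EV, 11.996, 11.2 and 11.04 in OL+EV, and 7.95, 6.41 and 7.52 in OC. Its groups stepped down without overlap, by 0.61 to OL+EV (limma adjusted p = 0.000255) and by 1.20 to OC (limma adjusted p = 2.54e-07). KARS1, the lysine enzyme, read 73.6, 76.8 and 75.4 FPKM in DMSO+EV, 51.1, 51.7 and 48.4 in OL+EV, and 58.4, 59.0 and 61.7 in OC. OL+EV was its low group and OC lay between, again with no overlap. KARS1 fell by 0.57 in OL+EV (limma adjusted p = 7.44e-05) and by 0.33 in OC (limma adjusted p = 0.00308). OC was 0.24 above OL+EV (limma adjusted p = 0.0232), a call lost in 5 of 19 alternatives, among them those without any 1 OL+EV library or OC replicate 2, with an adjusted p up to 0.0927.

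Mitochondrial enzymes included falls in both treated groups. Of 16 tested, 6 fell and 1 rose in OL+EV (median -0.14), and 9 fell and 1 rose in OC (median -0.45), both against DMSO+EV. Among all tested genes, 23.5% and 35.8% were lower, and 52.6% and 69.0% were called in either direction. In OC against OL+EV 8 fell and 0 rose by limma (median -0.34), beside 34.8% and 25.9% of all genes. At an unadjusted p under 0.05, 0 rose as well, and AARS2 was called higher without OC replicate 3 (0.23, limma adjusted p = 0.0366). CARS2, the mitochondrial cysteine enzyme, had the largest fall. It read 30.6, 29.0 and 27.2 FPKM in DMSO+EV, 22.7, 21.3 and 24.9 in OL+EV, and 7.04, 7.02 and 8.12 in OC. The OC libraries lay far below both other groups. CARS2 fell by 1.83 in OC against DMSO+EV (SE 0.09, limma adjusted p = 1.30e-09) and by 1.51 against OL+EV (SE 0.09, limma adjusted p = 2.13e-08). Its fall in OL+EV was 0.32 (limma adjusted p = 0.0115), lost without OL+EV replicate 2 (-0.27, adjusted p = 0.0645).

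Another 4 mitochondrial members fell in OC without a call in OL+EV. SARS2, the serine enzyme, was 11.1 ± 0.342, 11.5 ± 0.269 and 6.83 ± 0.322 FPKM, and fell by 0.63 in OC (limma adjusted p = 1.33e-05). VARS2, the valine enzyme, was 8.34 ± 0.430, 9.03 ± 0.303 and 6.15 ± 0.0497, and NARS2, the asparagine enzyme, was 3.96 ± 0.822, 3.42 ± 0.425 and 2.09 ± 0.191. RARS2, the arginine enzyme, was 10.6 ± 1.18, 9.69 ± 0.578 and 7.07 ± 0.660. These 4 were not called in OL+EV against DMSO+EV, and each was called lower in OC against both other groups. YARS2 and MARS2, the tyrosine and methionine enzymes, were called lower in every comparison, YARS2 at 13.9 ± 1.24, 10.5 ± 0.336 and 6.87 ± 0.467 FPKM and MARS2 at 2.95 ± 0.403, 1.38 ± 0.241 and 0.864 ± 0.0149. The OC against OL+EV call of MARS2 (-0.35, limma adjusted p = 0.0140) was lost in 2 of 18 alternatives, 1 of them without OL+EV replicate 1.

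EARS2, the glutamate enzyme, fell to a like level in both treated groups, 5.85 ± 0.526, 3.24 ± 0.373 and 2.81 ± 0.204 FPKM. IARS2, the isoleucine enzyme, was 38.8 ± 8.50, 29.0 ± 2.91 and 24.01 ± 0.423 FPKM, and its OL+EV fall (-0.39, limma adjusted p = 0.0290) was lost in 5 of 19 alternatives, among them those without DMSO+EV replicate 2 or 3 or OL+EV replicate 3. LARS2, the leucine enzyme, was 2.99 ± 0.507, 2.22 ± 0.232 and 2.63 ± 0.302, and its OL+EV fall (-0.30, limma adjusted p = 0.0413) was lost in 8 of 18, among them those without DMSO+EV replicate 2 or 3, OL+EV replicate 2 or 3, or OC replicate 1. PARS2, the proline enzyme, was the only mitochondrial member called higher in OC than in DMSO+EV. It read 2.88, 3.73 and 3.42 FPKM in DMSO+EV, 4.43, 3.57 and 3.54 in OL+EV, and 4.20, 4.57 and 4.24 in OC. OC lay above every DMSO+EV library, by 0.30 on the log2 scale (limma adjusted p = 0.0233), a call lost in 3 of 18 alternatives, among them those without DMSO+EV replicate 1 or OC replicate 2, with an adjusted p up to 0.0936.

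AARS2, FARS2, HARS2 and TARS2, for alanine, phenylalanine, histidine and threonine, were called in no comparison of the fit as described, but each was in at least 1 alternative. AARS2 was 4.03 ± 0.183, 3.33 ± 0.0732 and 3.85 ± 0.420 FPKM, FARS2 was 4.63 ± 0.656, 4.85 ± 0.645 and 3.68 ± 1.02, and TARS2 was 10.8 ± 0.847, 10.2 ± 0.505 and 9.34 ± 1.37. OC replicate 3 was the library on which some of these rested. Without it FARS2 was called lower in OC than in DMSO+EV (-0.43, limma adjusted p = 0.0212) and than in OL+EV (-0.49, limma adjusted p = 0.0141), TARS2 lower than in DMSO+EV (-0.27, limma adjusted p = 0.0492), and HARS2 lower than in OL+EV (-0.25, limma adjusted p = 0.0235). HARS2 was called lower in that comparison after quantile normalization too (-0.23, limma adjusted p = 0.0323). AARS2 in OL+EV lay below every DMSO+EV library (-0.22, limma adjusted p = 0.0722). It was called lower there without OC replicate 3 (limma adjusted p = 0.0325) and after median-of-ratios rescaling (-0.26, limma adjusted p = 0.0362). Split by catalytic fold instead of compartment, 11 of 18 class I enzymes and 8 of 16 tested class II enzymes fell in OL+EV, and 14 and 10 fell in OC, against DMSO+EV. Of all tested genes, 23.5% and 35.8% were lower in OL+EV and OC. EPRS1, the joined glutamate and proline enzyme, was placed in neither class and was called lower in both treated groups. The difference between the classes was not tested.

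Cytosolic and mitochondrial enzymes for the same amino acid were set against each other as 17 within-library log2 ratios, which do not depend on how a library is scaled apart from the pseudocount. EPRS1 and FARS2 each occur in 2 pairs. Against DMSO+EV, the ratio in OL+EV lay below without overlap in 12 pairs, above in 2 and overlapped in 3, with a median difference of -0.43. In OC against DMSO+EV, 7 lay below, 4 above and 6 overlapped, with a median of -0.0046. In OC against OL+EV, 4 lay below, 9 above and 4 overlapped, with a median of 0.27. Among single genes, in the same order of comparisons, 27.6%, 36.5% and 38.4% lay below without overlap. Those above were 34.3%, 33.3% and 29.6%. The share over other gene pairs was not computed, so these counts do not set the enzyme pairs apart. With 3 libraries a group a two-sided exact permutation test cannot give a p below 0.1, so none was run on the ratios.

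The pairs differed among themselves in OC. The valine ratio VARS1/VARS2 was 1.99, 2.12 and 2.13 in DMSO+EV, 0.61, 0.62 and 0.48 in OL+EV, and 0.23, 0.10 and 0.18 in OC, so that both treated groups lay below. The cysteine ratio CARS1/CARS2 was -1.05, -1.08 and -0.79 in DMSO+EV, -0.60, -0.72 and -0.88 in OL+EV, and 0.92, 1.03 and 0.89 in OC, where it was positive and not negative. The phenylalanine ratio FARSB/FARS2 went the other way, from 1.11 ± 0.14 to -0.65 ± 0.19 and -1.06 ± 0.31. The tyrosine ratio YARS1/YARS2 was 1.58 ± 0.10, 0.87 ± 0.08 and 1.66 ± 0.09, with OL+EV below both other groups. The leucine ratio LARS1/LARS2 was 1.97 ± 0.04, 1.54 ± 0.04 and 0.87 ± 0.18, and the methionine ratio MARS1/MARS2 was 3.53 ± 0.08, 3.79 ± 0.08 and 4.09 ± 0.04, a step up in each treated group.

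HARS1 and HARS2 are neighbours on chromosome 5, at chr5:140673905-140691370 and chr5:140691455-140699305, with 84 bases between them. Their levels parted in the treated groups. HARS1 fell in both, as given above, whereas HARS2 was 15.3 ± 1.11, 16.6 ± 0.498 and 14.6 ± 1.48 FPKM, with differences of 0.11 (limma adjusted p = 0.328) and -0.06 (limma adjusted p = 0.599). Their log2 ratio was 1.13, 1.19 and 0.94 in DMSO+EV, 0.30, 0.18 and 0.21 in OL+EV, and 0.57, 0.56 and 0.60 in OC, with no overlap between the groups.

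**Figure D4:**
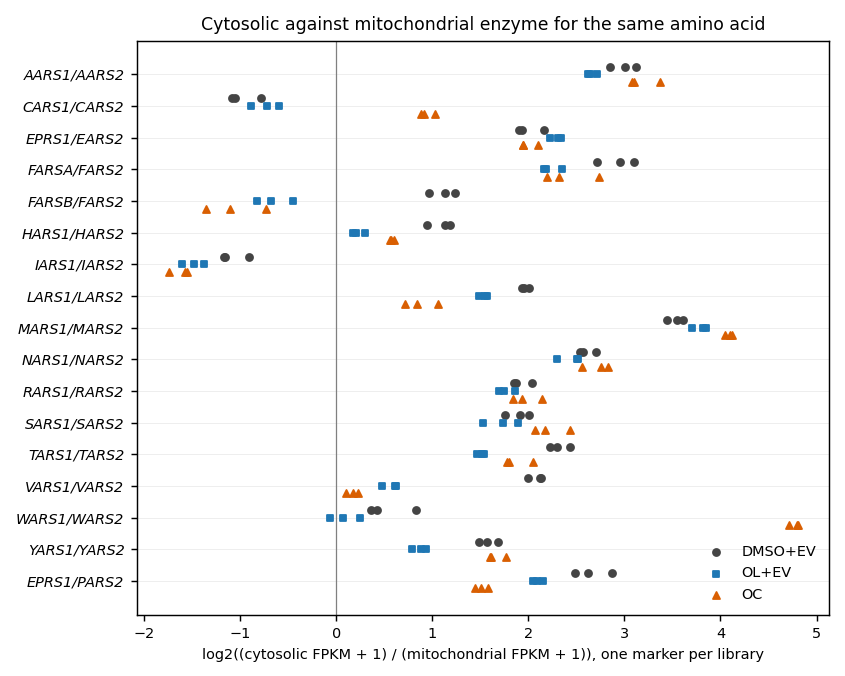
Log2 ratio of cytosolic to mitochondrial enzyme, computed on FPKM + 1, for 17 pairs, with 1 marker per library and colours for the 3 groups. The OC markers of WARS1/WARS2 stand near 4.77, and those of CARS1/CARS2 lie above 0 while its other markers lie below.

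Of the 12 members reported as ATF4-responsive, 9 fell and 0 rose in OL+EV by limma, with 0 higher at an unadjusted p under 0.05 as well. Of the same 12, 9 fell and 1, WARS1, rose in OC against DMSO+EV, and 4 fell and 2, WARS1 and AARS1, rose in OC against OL+EV. Among the 7 members whose windows held TGATGNAA, printed above, 6 were called lower in OL+EV, all but CARS1, and 5 in OC, all but AARS1 and CARS1. In OC against OL+EV, AARS1 was higher, IARS1 and YARS2 were lower, and the other 4 were not called, among them NARS1 (-0.24, limma adjusted p = 0.0523), which was called lower in 6 of 19 alternatives, including those without DMSO+EV replicate 1 or 3 or OC replicate 3. These counts include YARS2, which is not one of the 12. Whatever their motif or list, 20 and 25 of the 35 tested members were lower in OL+EV and OC against DMSO+EV, beside 23.5% and 35.8% of all genes, and 15 were lower in OC against OL+EV, beside 34.8%.

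ATF4 mRNA itself, at 234 ± 7.95, 239 ± 55.2 and 238 ± 37.0 FPKM, was not called in any comparison. Of the 21 genes of the amino-acid response list, 4 rose and 10 fell in OL+EV, and 7 rose and 11 fell in OC, both against DMSO+EV. In OC against OL+EV 12 rose and 5 fell, with a median of 0.39. In the same order, 29.0%, 33.1% and 25.9% of all tested genes were higher, and 23.5%, 35.8% and 34.8% lower. The 7 of 21 higher in OC against DMSO+EV was thus near the share of all genes. CHAC1 and VLDLR of this list entered the test only through OC, so the filter favoured a higher level there. The genes that moved were mixed in role. ASNS, which makes asparagine, read 4.97, 5.15 and 5.85 FPKM in DMSO+EV, 1.75, 1.39 and 1.54 in OL+EV, and 2.33, 2.25 and 2.47 in OC, lowest in OL+EV and partly higher in OC, the same order as KARS1 and TARS1. PSAT1 of serine synthesis was 20.6 ± 3.12, 4.23 ± 0.391 and 7.23 ± 1.04, and PHGDH, of the same route, was 59.6 ± 4.29, 17.6 ± 1.76 and 14.9 ± 1.14 and was not called between OL+EV and OC.

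TRIB3, a pseudokinase induced in the response, was 49.2 ± 6.21, 17.4 ± 1.26 and 33.5 ± 0.740 FPKM. ATF5, a transcription factor, was 24.2 ± 2.34, 14.6 ± 0.987 and 34.9 ± 2.50, called higher in OC than in both other groups. DDIT3, the stress-linked factor CHOP, rose in OL+EV (0.45, limma adjusted p = 0.0224) and more in OC (1.60, limma adjusted p = 5.68e-07). The largest difference of the list was that of EIF2AK2, the double-stranded RNA kinase PKR, also known as an interferon-induced gene, at 5.10 ± 0.718, 4.76 ± 0.220 and 34.7 ± 5.33 FPKM.

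Several partners that act beside the enzymes fell as well. Of 10 mitochondrial charging partners, 3 fell in OL+EV, 7 in OC against DMSO+EV and 3 in OC against OL+EV, and 0 rose by limma in each, with 0 higher at an unadjusted p under 0.05 as well. Of all tested genes, 23.5%, 35.8% and 34.8% were lower in these 3 comparisons, and 29.0%, 33.1% and 25.9% higher. The 3 of 10 in OC against OL+EV was not above the share of all genes. MTFMT and MTO1 of this list reached 1 FPKM in every library only of DMSO+EV, through which they entered the test. TUFM, the mitochondrial elongation factor that carries charged tRNA, fell from 135 ± 10.8 to 91.9 ± 5.12 in OL+EV and 46.2 ± 3.85 FPKM in OC (-1.53, limma adjusted p = 1.48e-08). GTPBP3, which modifies mitochondrial tRNA, was 11.7 ± 0.443, 11.2 ± 0.769 and 4.06 ± 0.303 FPKM, called lower in OC against each of the other groups and not between these. TRMU, another modifier of mitochondrial tRNA, was 13.3 ± 1.25, 11.7 ± 0.172 and 7.38 ± 0.792. Transcripts of mitochondrial DNA made up the smallest share of the library in OC, 6.70%. They include the mRNAs that these enzymes serve to translate, and also ribosomal RNAs and tRNAs. With libraries rescaled to equal totals outside those transcripts, no called fall of a mitochondrial member in OC was lost.

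Of 11 cytosolic partners, 6 fell and 2 rose in OL+EV, 9 fell and 1 rose in OC against DMSO+EV, and 8 fell and 0 rose by limma in OC against OL+EV, with 0 higher at an unadjusted p under 0.05 as well. In the same order, 23.5%, 35.8% and 34.8% of all tested genes were lower, and 29.0%, 33.1% and 25.9% higher. EEF1B2, an exchange subunit of the elongation factor that delivers charged tRNA, went from 133 ± 12.4 to 84.5 ± 3.95 and 23.4 ± 4.99 FPKM (-2.47 in OC, limma adjusted p = 1.65e-09). XPOT, the tRNA exporter, was 9.54 ± 1.60, 5.17 ± 0.0626 and 5.69 ± 0.109. SEPSECS, which completes selenocysteine on its tRNA, rose in both treated groups, from 0.729 ± 0.0227 to 1.20 ± 0.127 and 1.29 ± 0.124 FPKM (0.35, limma adjusted p = 0.00693, and 0.41, limma adjusted p = 0.00166). All its DMSO+EV libraries were below 1 FPKM. SEPSECS thus entered the test only through the treated groups, and the filter favoured this rise. PSTK of this list entered in the same way. MYC and the 5 nucleolar genes listed with it all fell in both treated groups, with medians of -1.31 and -1.85. MYC, a transcription factor that binds CACGTG, read 23.5, 25.6 and 27.0 FPKM in DMSO+EV, 10.2, 10.2 and 9.57 in OL+EV, and 6.60, 6.65 and 6.98 in OC. Of the 4 members whose windows held CACGTG, EARS2, IARS1, MARS2 and CARS2, all were called lower in both treated groups, beside 20 and 25 of all 35 tested members and 23.5% and 35.8% of all genes. The CARS2 window lay wholly inside the listed span of the gene. The part of MYC in the members' values was not tested.

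**Figure D5:**
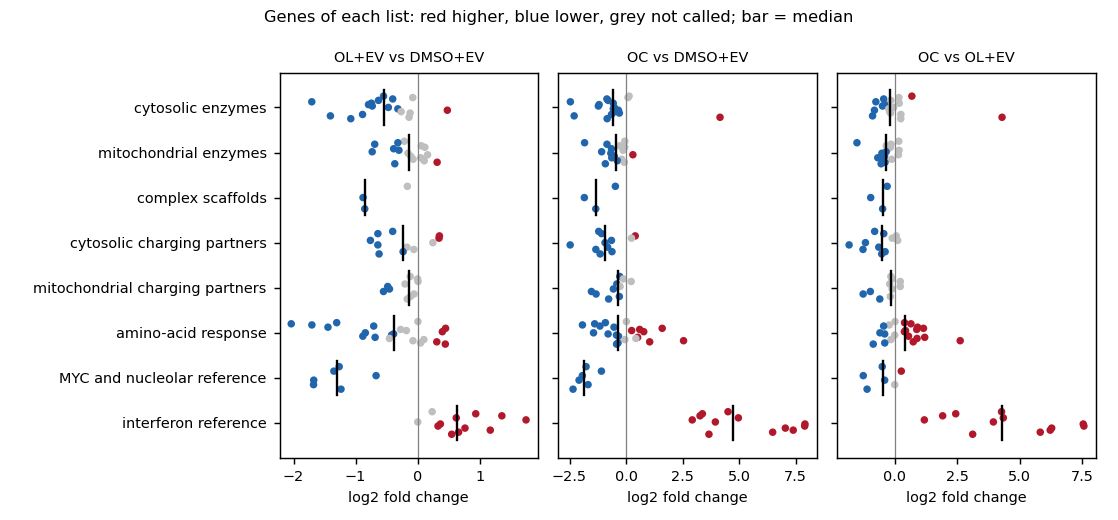
Log2 fold changes of single genes for the groups of members and for each related list in the 3 comparisons, red for called higher, blue for called lower and grey for not called, with a bar at each list's median. The interferon reference has its median at 4.74 in OC against DMSO+EV, and the cytosolic enzymes theirs at -0.57.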

How the data were processed

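RNA-seq of H1975 cells gave 9 libraries in 3 groups of 3, as the labels put them, and each column of the matrix was matched to its sample by title, with 0 columns left unused. The authors deposited 1 value per gene and library. The file names no unit: fractional values and unequal totals point to FPKM, a value the authors scaled by gene length and library size, and are read here as such. No whole-read steps were found among the low values, which leaves depth unknown and allows no counting interval. Tools that the submitters' processing notes list are Bowtie2 2.1.0, STAR and edgeR, with the build hg38 and no role for each. Counter, annotation and use of strand were not given in the sources read, so reads of overlapping antisense genes cannot be told apart. The labels' extraction protocol, shared by all samples of the series, names RNase R, which digests linear RNA, and whether it was applied to the RNA-seq libraries is not settled by the labels.

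The test was limma 3.58.1 (R 4.3.3) on log2(FPKM + 1), fitted on group to all 9 libraries at once with a mean-variance trend and robust empirical Bayes. Genes with at least 1 FPKM in at least 3 libraries, 13775 of 34021, entered. Adjustment was by Benjamini-Hochberg over these, with calls at an adjusted p under 0.05. This fit was first tried on simulated data. Values in every library were given for WARS1, WARS2, TARS3, GARS1, KARS1 and the 3 largest called rises and falls per comparison, and up to 3 called genes were taken by size of change per related list; IRF1, XPOT, TRMU and other genes beyond these were chosen after their values were seen. The members and lists were chosen with earlier results of these data known. Alternatives were limma without a trend, 3 rescalings, other filters and pseudocounts, a fit of the 2 groups compared, a replicate block, a fold threshold and leaving out each library. Same-numbered libraries did not deviate together (r from -0.315 to 0.0358), so the numbers were not treated as pairs. Python 3.11.15 with pandas 2.3.3, numpy 2.4.6 and matplotlib 3.10.9 searched promoter windows of RefSeq GRCh38.p14 and drew the figures. The other 12 samples were not analysed here.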

Additional observations from a re-analysis of the deposited data

How the results depend on the processing

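Of 2430 values recomputed for 129 results, 2283 kept their direction and side of the threshold or stayed within the set range, 39 lost and 44 gained a call, 55 moved and 9 turned direction; where a value changed, the cause was not tested. WARS1 in OC was called in each of its 19 alternatives, from 3.75 to 4.27 against DMSO+EV and from 3.85 to 4.42 against OL+EV. With each library left out, members higher numbered 1 to 2 (OL+EV against DMSO+EV), 1 to 2 (OC against DMSO+EV) and 2 to 5 (OC against OL+EV), and WARS1 in OL+EV ranged from -0.30 to -0.0258. Members higher in OL+EV were 1 after median-of-ratios rescaling and 1 without a filter, those higher in OC than in DMSO+EV were 1 without a filter and 1 with a filter at 5 FPKM, and those higher in OC than in OL+EV were 7 after median-of-ratios rescaling, 6 with equal totals outside mitochondrial genes and 5 with only the 2 groups fitted. Requiring an absolute log2 fold change of at least 1 left 0 higher and 3 lower members of 1266 genes (OL+EV against DMSO+EV), 1 and 7 of 3004 (OC against DMSO+EV), and 1 and 1 of 1510 (OC against OL+EV).

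Direction turned only in values near 0. After median-of-ratios rescaling these were SARS2 in OL+EV (-0.0060) and MARS1 in OC against OL+EV (0.0175). With libraries left out, FARS2 in OL+EV ranged from -0.0285 to 0.14, turning without DMSO+EV replicate 1 or OL+EV replicate 1 (-0.0272), WARS2 in OC against DMSO+EV from -0.15 to 0.0234, turning without DMSO+EV replicate 2, and AARS2 there from -0.11 to 0.0162, turning without OC replicate 3. The median pair difference in OC against DMSO+EV, -0.0046, was 0.0922 with a pseudocount of 0.1 and -0.24 with 5, and with libraries left out it ranged from -0.0562 to 0.0238, above 0 without DMSO+EV replicate 3 or OC replicate 1 (0.0215), so its sign is not settled. With a pseudocount of 5 the medians were -0.38 (OL+EV against DMSO+EV) and 0.0793 (OC against OL+EV), and with 0.1 the latter was 0.37; with libraries left out the former ranged from -0.46 to -0.38. With the replicate number as a block, higher and lower members were 2 and 19, 2 and 24, and 2 and 15 in the 3 comparisons, and 6838, 9204 and 7963 genes were called in all. Only 1 of the 9 same-numbered pairs of libraries correlated best with its own number. Unknown depth and 3 libraries a group limit the precision of low members such as TARS3, MARS2 and FARSB in OC.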
